A study of Mus musculus with 16 samples.

Results

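The integrin subunits are described here through 10 genes, taken by symbol from the 54532 genes of the count table: the leukocyte alpha chains Itgam, Itgax and Itgal with their beta chain Itgb2, and the alpha chains Itga4, Itga5, Itga6, Itga9 and Itgav with the beta chain Itgb1. They were read in RNA from retinal microglia of mouse pups at postnatal day 17, in 8 libraries from oxygen-induced retinopathy (OIR) and 8 from retinas without it (nonOIR). Pups in this model spend days in high oxygen, lose part of the retinal vessels, and on return to room air form abnormal ones in hypoxic tissue. All mice of both groups carried Cx3cr1CreERT2:Rosa26-tdTomato, a Cre driven from the Cx3cr1 locus with a red reporter, and all received 5 µl of 21 mg/ml tamoxifen under the skin at postnatal day 1. The reporter therefore marks cells that had Cx3cr1 activity at that time. Cells were sorted as CD45low, CD11b+, Tom+, Ly6C- and Ly6G-. CD11b is the protein of Itgam, so the cells were chosen for having that subunit on the surface. Whether each library is a separate animal is not given in the labels. The p-values here set a difference against how far these libraries spread, and that spread may be technical.

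Integrins are receptors made of 1 alpha and 1 beta chain that bind extracellular matrix or proteins on other cells and link them to the actin skeleton. Each alpha chain fixes most of what a pair binds, while a beta chain is shared by many alphas. Itgb2 pairs only with leukocyte alphas: with Itgam it forms complement receptor CR3, with Itgax CR4, and with Itgal the ICAM receptor LFA-1. Itgb1 pairs with Itga5 in the main fibronectin receptor, with Itga6 in a laminin receptor, with Itga4 in VLA-4, with Itga9 in a receptor for tenascin and osteopontin, and with Itgav in a receptor for matrix proteins holding an RGD motif. Microglia use CR3 in clearing synapses and debris, and Itgav with Itgb8 or other betas can release active TGF-beta.

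Before the levels, the stretches just upstream of the RNA start are shown for 4 alpha chain genes: Itga5, the member called between the groups, Itgax and Itga9, which the main test did not call and which were higher and lower in OIR with the lane as a covariate, and Itgam, the sort marker and chromosomal neighbour of Itgax. Each run is the 250 bases before the RefSeq start (GRCm38.p6), 5′ to 3′ on the gene's strand, with matches to any motif searched in capitals.
Itga5 (chr15:103366792-103367041, minus strand): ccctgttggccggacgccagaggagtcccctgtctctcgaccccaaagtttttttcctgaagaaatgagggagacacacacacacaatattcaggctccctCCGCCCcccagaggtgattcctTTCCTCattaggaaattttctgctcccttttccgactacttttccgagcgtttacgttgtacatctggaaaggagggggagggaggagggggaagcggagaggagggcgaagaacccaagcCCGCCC
Itgax (chr7:128129300-128129549, plus strand): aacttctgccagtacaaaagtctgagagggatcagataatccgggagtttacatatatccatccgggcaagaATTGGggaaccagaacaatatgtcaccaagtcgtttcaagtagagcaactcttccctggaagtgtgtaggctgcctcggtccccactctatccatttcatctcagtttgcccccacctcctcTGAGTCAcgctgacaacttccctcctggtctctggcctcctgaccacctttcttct
Itga9 (chr9:118711442-118711691, plus strand): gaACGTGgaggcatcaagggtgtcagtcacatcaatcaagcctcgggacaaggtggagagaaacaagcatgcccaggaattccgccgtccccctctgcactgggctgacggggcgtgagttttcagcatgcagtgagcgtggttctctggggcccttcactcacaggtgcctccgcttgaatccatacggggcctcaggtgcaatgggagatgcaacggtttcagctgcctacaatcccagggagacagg
Itgam (chr7:128062390-128062639, plus strand): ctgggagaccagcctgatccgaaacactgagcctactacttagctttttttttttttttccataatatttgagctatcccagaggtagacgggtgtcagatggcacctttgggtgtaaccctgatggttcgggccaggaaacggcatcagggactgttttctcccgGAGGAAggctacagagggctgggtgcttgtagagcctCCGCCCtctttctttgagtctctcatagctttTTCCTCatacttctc
RefSeq promoters were matched for 7 of the 10 members, and Itgal, Itgb2 and Itga6 had no entry. The start that RefSeq uses for Itga9 (chr9:118711692) lies inside the GENCODE gene, downstream of its first annotated start (chr9:118606690). The window shown for Itga9 is therefore not the stretch before that first start.

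The motifs were searched by their letters on both strands. GAGGAA, the core bound by the myeloid factor PU.1, was found at 84 and 15 bases upstream of Itgam, at 127 bases for Itga5, at 218 and 7 bases for Itgav and at 9 bases for Itgb1. It was in 4 of the 7 matched members and in 23.3% of 32851 promoter windows of this length. The GC box GGGCGG stood upstream of Itgam, Itga4, Itga5 (149 and 6 bases) and Itgb1, and is in 32.7% of windows. Itgax held the AP-1 motif TGANTCA at 56 bases (6.75% of windows) and a CCAAT box (CCAAT, read on the opposite strand) at 178 bases (33.8%). ACGTG, the core of the hypoxia response element, was matched at 248 bases upstream of Itga9 and in 16.6% of windows, and any match to the E-box CACGTG also holds it. No match to CACGTG (6.02%) or TATAAA (12.4%) lay in the 7 windows. These matches describe letters only.

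The members spanned a wide range of levels, and both beta chains stood above all alphas as counted over whole genes. Levels are given first as RPKM (CPM divided by the merged exon length in kilobases, which allows genes to be compared), as means ± SD over 8 libraries a group. Itgb2 was highest at 308 ± 38.1 RPKM in OIR and 311 ± 53.6 in nonOIR (SD, n = 8). Itgb1 followed at 205 ± 36.0 RPKM in OIR and 192 ± 38.6 in nonOIR, and its libraries did not overlap those of Itgb2 in either group. Next came the laminin receptor chain Itga6, at 62.6 ± 13.8 RPKM in OIR and 69.0 ± 15.8 in nonOIR. Itgam stood at 63.4 ± 18.8 RPKM in OIR and 60.4 ± 15.3 in nonOIR, a range that overlapped that of Itga6. This order depends on the length used: over the longest transcript the lowest Itga6 library (91.7 RPKM) lay above the highest Itgam library (88.9 RPKM).

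Itgav stood lower, at 17.7 ± 5.08 RPKM in OIR and 20.1 ± 2.82 in nonOIR, with all its libraries under all those of Itgam. Itga9 had 8.82 ± 3.12 RPKM in OIR and 11.8 ± 2.62 in nonOIR, Itga5 10.9 ± 1.96 and 7.23 ± 2.08, and Itgax 9.11 ± 1.32 and 6.11 ± 2.43 (SD, n = 8). The ranges of these 3 genes overlapped in both groups, so their order is not fixed beyond the spread. In OIR the means ran Itga5, Itgax, Itga9, and in nonOIR Itga9, Itga5, Itgax. Itgal had 1.49 ± 0.493 RPKM in OIR and 0.470 ± 0.410 in nonOIR, and Itga4 had 0.134 ± 0.103 and 0.0574 ± 0.0460. The level of Itgam is uncertain, because 3450 of its 5024 exon bases are also annotated to Gm49368, and reads there may not have been counted for either gene. Set over its unshared bases alone, Itgam would stand at 197.6 RPKM over all libraries, above Itga6. That lies between the Itgb1 means of 205 RPKM in OIR and 192 in nonOIR, so Itgb1 would then not stand clear of all alphas. Its comparison between groups uses the same counted stretch in every library.

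**Figure D1:**
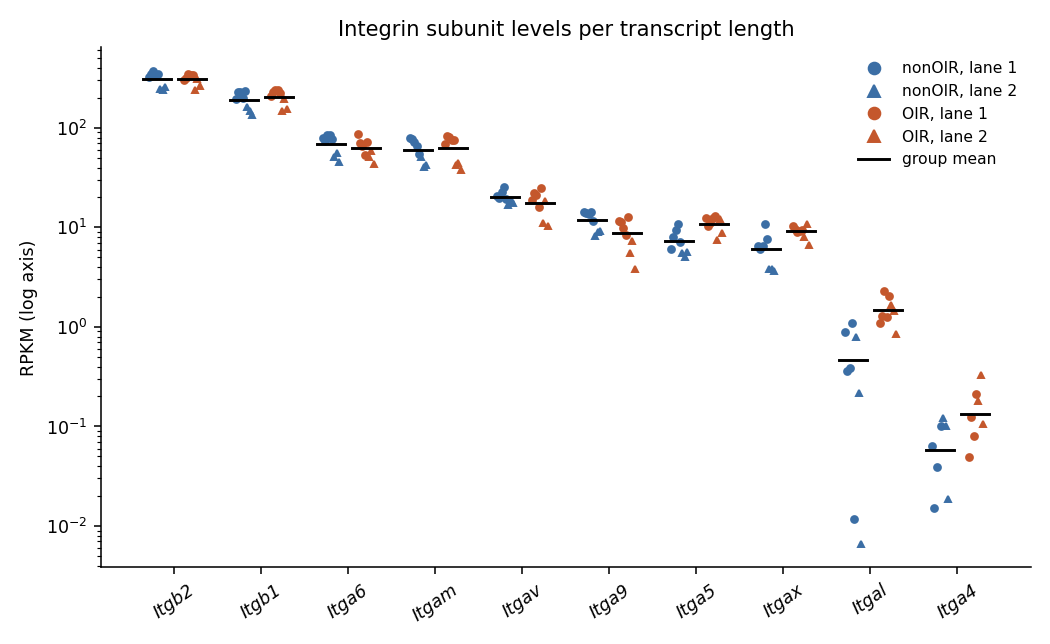
Level of each subunit in each library (RPKM, log axis) for nonOIR and OIR libraries, with the lane code as the point shape and the group mean as a bar. Itgb2 and Itgb1 stand above all alpha chains and Itga4 lowest; Itga4 had 0 counts in OIR 1 and nonOIR 4, which a log axis cannot show.

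Between OIR and nonOIR, Itga5 was the 1 subunit of 10 that passed the test over all genes, with more RNA in OIR. Across all 12496 genes tested 10.9% passed, 6.39% higher and 4.56% lower, so 1 member in 10 is near the background. The median log2 difference of the 10 members was 0.08, against -0.03 over all genes tested. No member had groups that failed to overlap, which 2.02% of all genes tested had. In sorted cells measured in bulk, fewer cells of a type and less RNA per cell cannot be told apart. In the following, levels are CPM (counts per M counts of the TMM-scaled library total, M being mega), differences are OIR over nonOIR on the log2 scale with their standard errors, and adjusted p-values (threshold 0.05) come from the quasi-likelihood test of edgeR after Benjamini-Hochberg adjustment over all genes tested.

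Itga5, the alpha chain of the fibronectin receptor, ranged from 36.5 to 64.2 CPM in OIR (median 56.9) and from 25.04 to 53.4 CPM in nonOIR (median 32.6). All 8 OIR libraries lay above the nonOIR median and 5 of them above the highest nonOIR library, nonOIR 4. The means were 53.7 ± 9.68 CPM in OIR and 35.7 ± 10.2 CPM in nonOIR (SD, n = 8), a 1.51-fold difference (log2 0.59 ± 0.16, edgeR adjusted p = 0.0260). Without nonOIR 7, the library with the lowest level, the log2 difference was 0.53 and the call was lost (edgeR adjusted p = 0.0518). The authors' deposited table gives a log2 fold change of 0.56 with an adjusted p of 0.00526.

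The description label carries a lane code, L001 for 5 libraries of each group and L002 for 3 of each. Whether it also marks animals or preparations handled together is not given. Within lane 1 Itga5 differed by 0.51 ± 0.15 (edgeR adjusted p = 0.0871; background 3.33% of genes called) and within lane 2 by 0.84 ± 0.20 (edgeR adjusted p = 0.0197; background 15.4%). With the lane as a covariate the difference was 0.61 ± 0.12 (edgeR adjusted p = 0.00216), where 17.3% of all genes were called. The difference had the same sign in both lanes and passed in lane 2 alone. OIR 1 to 4 carry sample number codes that repeat those of other lane 1 libraries. Without these 4, Itga5 differed by 0.54 (edgeR adjusted p = 0.122). All 4 are of lane 1, so this fit, with group alone, has fewer libraries and splits the lanes unevenly between the groups.

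Itgax, the alpha chain of CR4 (CD11c), ranged from 31.8 to 51.6 CPM in OIR (median 44.7) and from 17.6 to 51.8 CPM in nonOIR (median 30.3). All 8 OIR libraries lay above the nonOIR median, while nonOIR 4 reached the top of the OIR range and 6 nonOIR libraries lay under its lower end. The means were 43.7 ± 6.33 CPM in OIR and 29.3 ± 11.7 CPM in nonOIR (SD, n = 8), and the 1.49-fold difference (log2 0.58 ± 0.20) did not pass (edgeR adjusted p = 0.0702). It passed with the lane as a covariate (0.65 ± 0.15, edgeR adjusted p = 0.00669) and without nonOIR 4 (0.75, edgeR adjusted p = 0.0118). DESeq2 also called it (adjusted p = 0.0278, background 14.9% of genes called), as did the authors' deposited table (log2 fold change 0.53, adjusted p = 0.0339).

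The size of the Itgax difference was unlike in the lanes. In lane 1 the means were 45.7 CPM in OIR and 36.1 CPM in nonOIR (log2 0.34 ± 0.15, edgeR adjusted p = 0.276). In lane 2 they were 40.5 CPM in OIR and 17.97 CPM in nonOIR (log2 1.21 ± 0.20, edgeR adjusted p = 0.00454), and the 3 nonOIR libraries of lane 2 all lay between 17.6 and 18.2 CPM. The test of the difference between lanes gave 0.83 ± 0.25, which did not pass with edgeR (adjusted p = 0.143, background 0.496% of genes called) and passed with DESeq2 (adjusted p = 0.0447). The same term was 0.30 ± 0.25 for Itga5 (edgeR adjusted p = 0.667) and -0.33 ± 0.23 for Itga9 (edgeR adjusted p = 0.591).

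Itgal, the alpha chain of LFA-1, was low and erratic in nonOIR. Its counts ran from 146 to 467 in OIR and from 1 to 161 in nonOIR, where 2 libraries, nonOIR 5 and nonOIR 8, had 2 and 1 counts. All 8 OIR libraries lay above the nonOIR median in CPM. The means were 9.82 ± 3.24 CPM in OIR and 3.09 ± 2.70 CPM in nonOIR (SD, n = 8), a fitted 3.20-fold difference (log2 1.68 ± 0.61) that did not pass (edgeR adjusted p = 0.0846). DESeq2 called it (log2 1.68, adjusted p = 0.0271), as did limma-voom with a larger difference (log2 2.98, 7.91-fold, adjusted p = 0.0133). The fit with the replicate number as a block gave 4.96-fold (edgeR adjusted p = 0.0553). The authors' deposited table gives a log2 fold change of 0.83 with an adjusted p of 0.0412.

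Itgam, the alpha chain of CR3, ranged from 190 to 416 CPM in OIR (median 360) and from 205 to 398 CPM in nonOIR (median 303). The groups overlapped almost fully, and the difference was 0.07 ± 0.19 (edgeR adjusted p = 0.863). Itgb2, the beta chain of all 3 leukocyte pairs, ranged from 739 to 1059 CPM in OIR (median 958) and from 734 to 1139 CPM in nonOIR (median 1020.5). Its difference was -0.01 ± 0.11 (edgeR adjusted p = 0.954). The 6 lowest libraries of Itgam, 3 of each group, were those of lane 2.

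Itga9, an alpha chain that pairs with Itgb1 alone, had lower values in most OIR libraries. It ranged from 29.7 to 98.7 CPM in OIR (median 70.4) and from 62.6 to 111 CPM in nonOIR (median 97.1), and 7 of 8 OIR libraries lay under the nonOIR median. The means were 67.8 ± 24.0 CPM in OIR and 90.5 ± 20.1 CPM in nonOIR (SD, n = 8). The 0.750-fold difference (log2 -0.42 ± 0.21) did not pass (edgeR adjusted p = 0.224). With the lane as a covariate it passed (-0.45 ± 0.12, edgeR adjusted p = 0.0107). Within lane 1 it was -0.32 ± 0.11 (edgeR adjusted p = 0.155) and within lane 2 -0.62 ± 0.21 (edgeR adjusted p = 0.0783), and it passed in neither lane alone.

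The other alpha partners of Itgb1 gave no call. Itgav, the RGD-binding alpha chain, ranged from 111 to 265 CPM in OIR (median 199) and from 180 to 274 CPM in nonOIR (median 209), with a difference of -0.18 ± 0.16 (edgeR adjusted p = 0.517). Itga6 ranged from 395 to 786 CPM in OIR (median 559) and from 406 to 763 CPM in nonOIR (median 683), with a difference of -0.14 ± 0.15 (edgeR adjusted p = 0.625). Itgb1 itself ranged from 601 to 973 CPM in OIR (median 886) and from 556 to 950 CPM in nonOIR (median 812), with a difference of 0.09 ± 0.13 (edgeR adjusted p = 0.724). In all 3 genes the groups overlapped over most of their range. Of the 8 OIR libraries, 7 lay under the nonOIR median for Itga6, 5 for Itgav and 3 for Itgb1. Itga4, the alpha chain of VLA-4, had 0 to 103 counts in OIR and 0 to 38 in nonOIR, with 0 counts in OIR 1 and nonOIR 4. Its means were 1.88 ± 1.44 CPM in OIR and 0.803 ± 0.643 CPM in nonOIR (SD, n = 8), a difference of 1.22 ± 0.78 (edgeR adjusted p = 0.356). Of the exon bases of Itga4, 1124 overlap Cerkl on the opposite strand, whose reads an unstranded library cannot set apart.

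**Figure D2:**
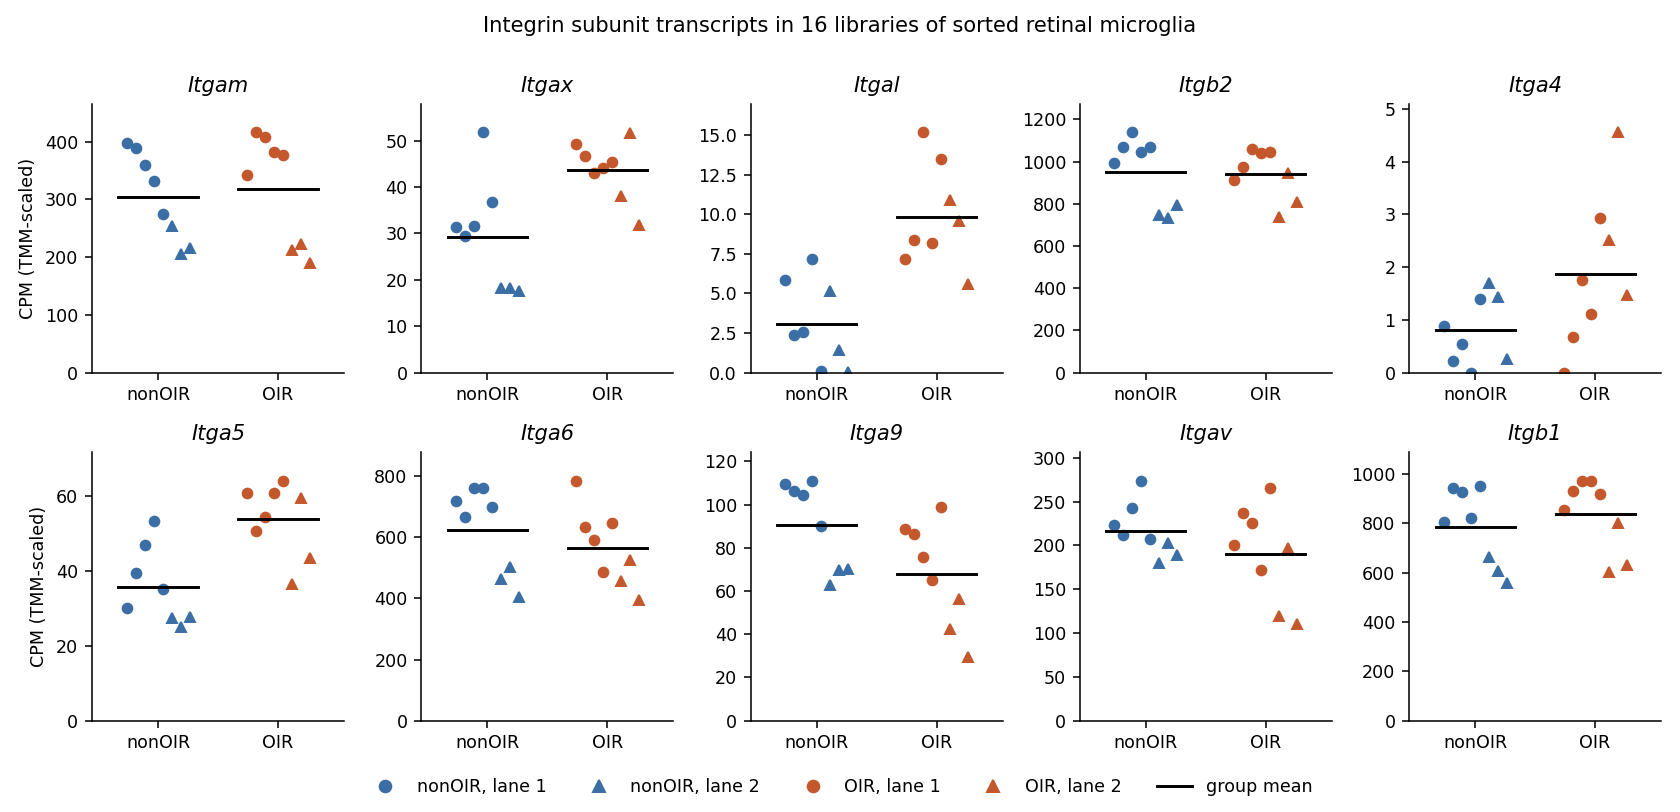
CPM of each of the 10 subunits in every library, nonOIR beside OIR, with lane 1 as circles, lane 2 as triangles and the group mean as a bar (linear axis from 0 in each panel). Itga5 has 5 OIR libraries above all nonOIR libraries, and the other 9 subunits were not called between the groups. The lane 2 libraries of Itgam, Itga9 and Itgb1 lie under all lane 1 libraries of their group in both groups. Those of Itgax, Itgb2, Itga5, Itga6 and Itgav do so in nonOIR alone.

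**Figure D3:**
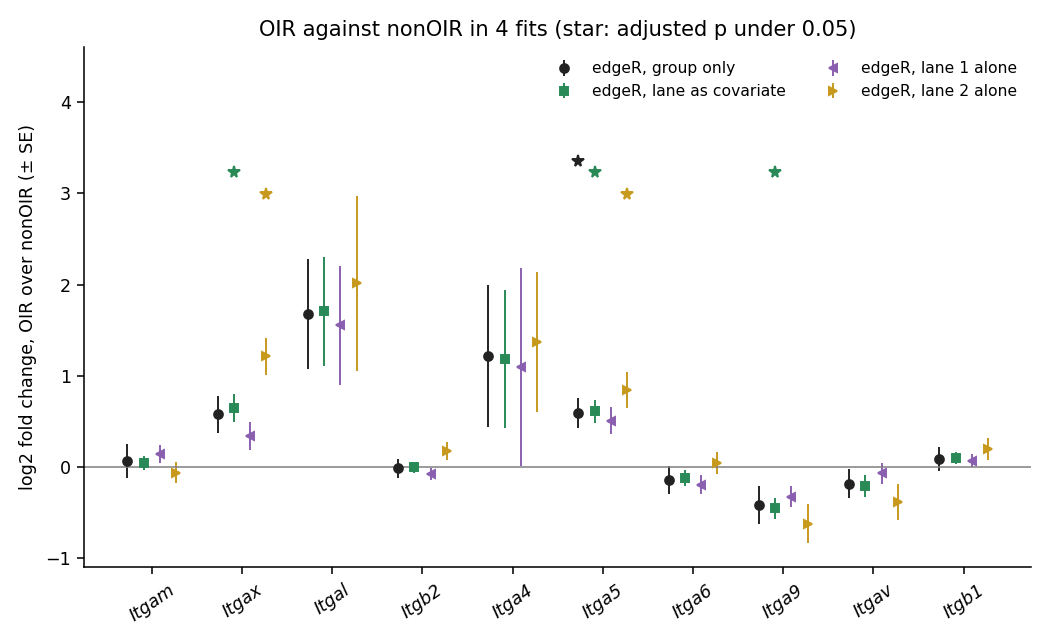
Log2 difference of OIR over nonOIR for each subunit with 1 standard error, from all 16 libraries, with the lane as a covariate and in each lane alone. Itga5 and Itgax lie to the higher side and Itga9 to the lower side in every fit shown, while Itgb2, Itgam, Itgb1 and Itga6 lie closer to 0; Itgal and Itga4 have wide errors.

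Since alpha and beta chains work in pairs, members were also set against their partners in the same library, as reads of the first gene in percent of the reads of the partner. This ratio does not depend on the scaling of the library. A two-sided exact permutation test over all splits of 8 against 8 was adjusted over 10 ratios, and 7 of 10 passed. Ratios that share a gene are not independent. The adjustment covers these 10 chosen ratios alone, unlike that over all genes tested. No share of other gene pairs that pass or do not overlap was set beside these results, so 7 of 10 has no background. The largest shift was in Itgal against Itgb2. Itgal had 0.697% to 1.48% of the Itgb2 reads in OIR and 0.00547% to 0.692% in nonOIR, so that the groups just failed to overlap. The geometric means were 1.00% and 0.134%, a log2 difference of 2.90 (exact permutation p = 0.0001554, the smallest this design can give; adjusted p = 0.00155). Without nonOIR 8 or nonOIR 5, the libraries with 1 and 2 Itgal counts, the difference was 2.24 or 2.30 (exact permutation adjusted p = 0.00155 each).

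Itgax stood at 3.94% to 5.46% of the Itgb2 reads in OIR and 2.22% to 4.95% in nonOIR (geometric means 4.64% and 2.93%, log2 difference 0.66, exact permutation p = 0.00124, adjusted p = 0.00311). Against Itgam, the other abundant alpha partner of Itgb2, Itgax stood at 14.2% in OIR and 9.31% in nonOIR (log2 difference 0.61, exact permutation adjusted p = 0.0186), and Itgal at 3.07% and 0.427% (2.84, adjusted p = 0.00311; 2.22 without nonOIR 8 and 2.28 without nonOIR 5). Itgam against Itgb2 was 32.7% in OIR and 31.5% in nonOIR (0.06, exact permutation adjusted p = 0.691). Among the alphas of Itgb2, then, Itgax and Itgal had a larger share relative to Itgam in OIR.

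Of the Itgb1 partners, Itga5 had 5.42% to 7.41% of the Itgb1 reads in OIR and 3.70% to 6.51% in nonOIR (geometric means 6.43% and 4.48%, log2 difference 0.52, exact permutation adjusted p = 0.00311). Itga9 had 4.70% to 10.8% of them in OIR and 9.46% to 13.6% in nonOIR (7.71% and 11.5%, log2 difference -0.58, exact permutation adjusted p = 0.00497). Itgav was also lower, at 22.2% in OIR and 27.9% in nonOIR (-0.33, exact permutation adjusted p = 0.0362), a call lost when any 1 of OIR 4, 6 or 8 or nonOIR 4, 7 or 8 was left out (adjusted p = 0.0563 to 0.0708). Itga6 was 67.3% and 79.02% (-0.23, exact permutation adjusted p = 0.0542), and Itga4, over 7 libraries a group with counts, differed by 1.26 (exact permutation adjusted p = 0.0790), so neither passed. Itga6 passed without OIR 1, OIR 6, nonOIR 2 or nonOIR 6 (exact permutation adjusted p = 0.00803 to 0.0495), and Itga4 without OIR 2 or nonOIR 6 (0.0415 and 0.0434) or without OIR 1 to 4 (0.0485).

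Within the lanes none of the 10 ratios passed. In lane 1 (5 against 5) the lowest adjusted p was 0.0794 by the exact permutation test, and in lane 2 (3 against 3) the smallest p possible is 0.1. The differences kept their sign in both lanes for the 7 ratios that passed. Itga5 against Itgb1 differed by 0.46 in lane 1 and 0.62 in lane 2, Itga9 against Itgb1 by -0.41 and -0.86, and Itgax against Itgb2 by 0.45 and 1.02. Itgax against Itgam differed by 0.23 in lane 1 and 1.25 in lane 2. Without OIR 1 to 4, the ratios of Itgal to Itgb2 and to Itgam no longer passed (exact permutation adjusted p = 0.0783 and 0.07504), nor did that of Itgav to Itgb1 (0.0943). This set, too, splits the lanes unevenly between the groups.

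**Figure D4:**
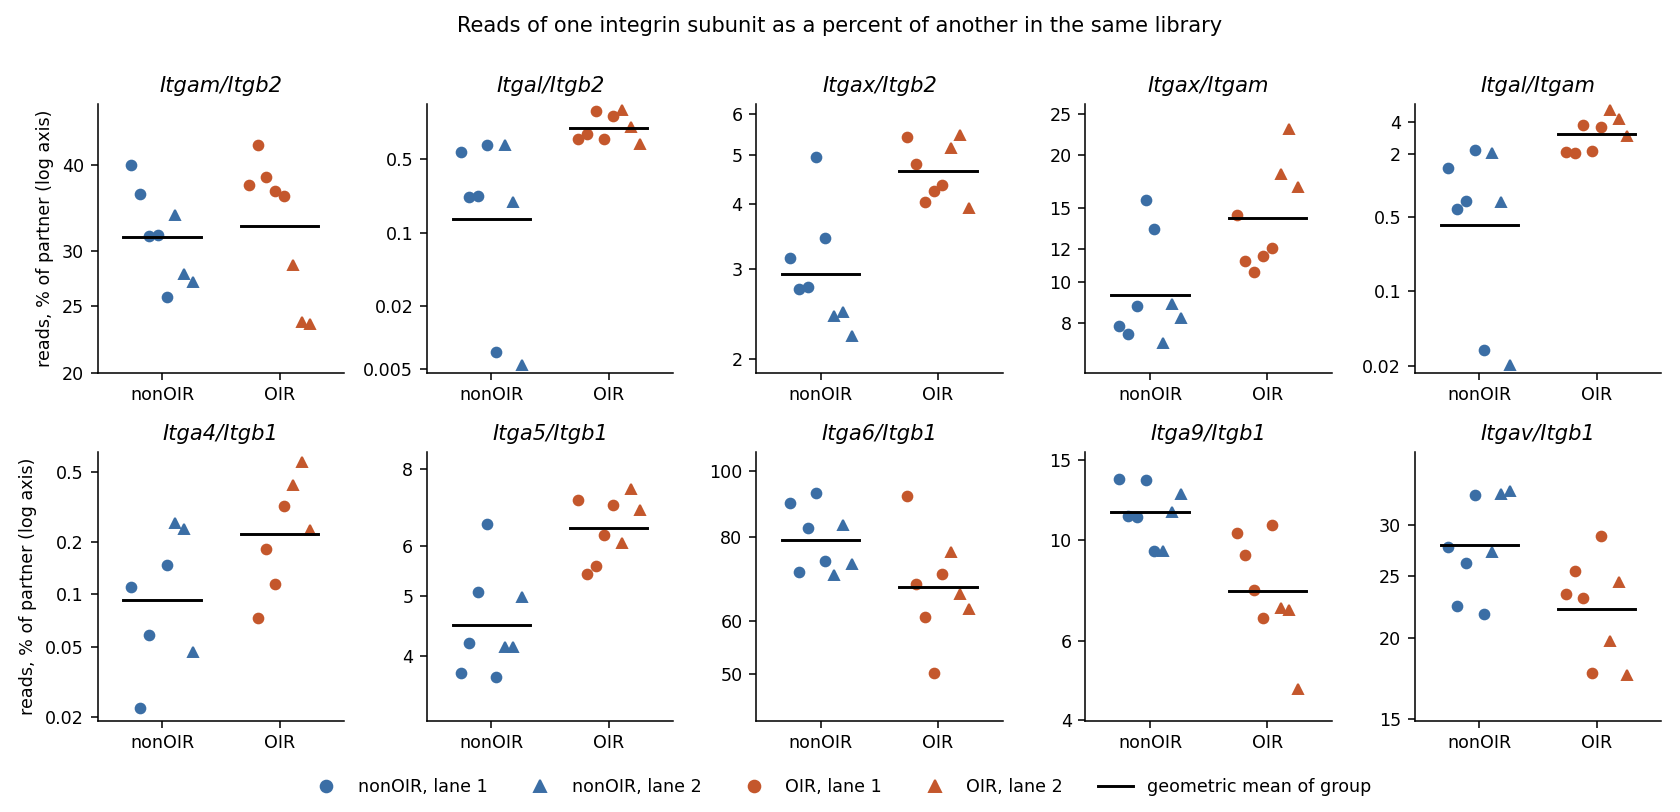
Reads of one subunit as a percent of the reads of another in the same library (log axis), with lane 1 as circles, lane 2 as triangles and the geometric group mean as a bar. Itgal/Itgb2 does not overlap between the groups, Itga5/Itgb1 and Itgax/Itgb2 sit higher and Itga9/Itgb1 lower in OIR; the 2 libraries with 0 Itga4 counts are not drawn.

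The members also differed between the lane codes. In a fit with group and lane, chosen after the data were seen, 8 of 10 members were lower in lane 2 and none higher, where 13.8% of all genes were lower and 11% higher (edgeR adjusted p under 0.05). Itgam ranged from 275 to 416 CPM in the 10 libraries of lane 1 and from 190 to 253 CPM in the 6 of lane 2, which did not overlap (log2 -0.76 ± 0.085, edgeR adjusted p = 3.80e-06). Itgb1 ranged from 804 to 973 CPM and from 556 to 802 CPM (-0.50 ± 0.069, edgeR adjusted p = 3.37e-05). Itga9 ranged from 65.2 to 111 CPM and from 29.7 to 70.3 CPM (-0.79 ± 0.12, edgeR adjusted p = 0.000125). In Itgam, Itgb1 and Itga9 the lanes did not overlap within OIR nor within nonOIR. In Itgax, Itgb2, Itga5, Itga6 and Itgav they did not overlap within nonOIR and did within OIR. The share of all genes whose lanes do not overlap was not counted, so these results have no background.

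Itga6 (-0.55), Itgb2 (-0.38), Itgax (-0.57), Itga5 (-0.47) and Itgav (-0.45) were lower too, with edgeR adjusted p from 0.000191 to 0.0137. Itgal (-0.47, edgeR adjusted p = 0.638) and Itga4 (1.01, edgeR adjusted p = 0.369) did not pass. In the OIR libraries alone 3 members were lower, Itgam, Itga9 and Itgb1, at a background of 7.71% lower. In the nonOIR libraries alone 7 members were lower, all but Itgav, Itgal and Itga4, at a background of 8.88% lower. Itgax fell by 1.03 on the log2 scale in lane 2 of nonOIR (edgeR adjusted p = 0.00640), and in OIR its lane difference was -0.20 (edgeR adjusted p = 0.493).

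Transcript length moved with the lane. Over genes of at least 10 CPM, split into 10 classes of like size by their longest transcript, the median log2 lane difference went from 0.26 in the shortest class (up to 1500 bases) to -0.30 in the longest (from 6720 bases). The 8 members of this level lie in classes 4 (Itgb2) to 10 (Itga9 and Itgav). With an offset for length, added after the data were seen, 6 of 10 members were still lower in lane 2, at a background of 10.9%. Itga5 (-0.32, edgeR adjusted p = 0.0685) and Itgav (-0.19, edgeR adjusted p = 0.186) were then no longer called. The same offset with the lane as a covariate left the difference between OIR and nonOIR at 0.64 for Itga5, 0.67 for Itgax and -0.39 for Itga9 (edgeR adjusted p = 0.00112, 0.00496 and 0.00817). Summed markers of other cells moved with the lane too. Their medians in lanes 1 and 2 were 69.6 and 284 CPM for photoreceptors, 1.72 and 39.6 CPM for erythrocytes, 87.8 and 199 CPM for border macrophages, and 37.0 and 18.9 CPM for endothelium. Their part in the lane difference was not tested.

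**Figure D5:**
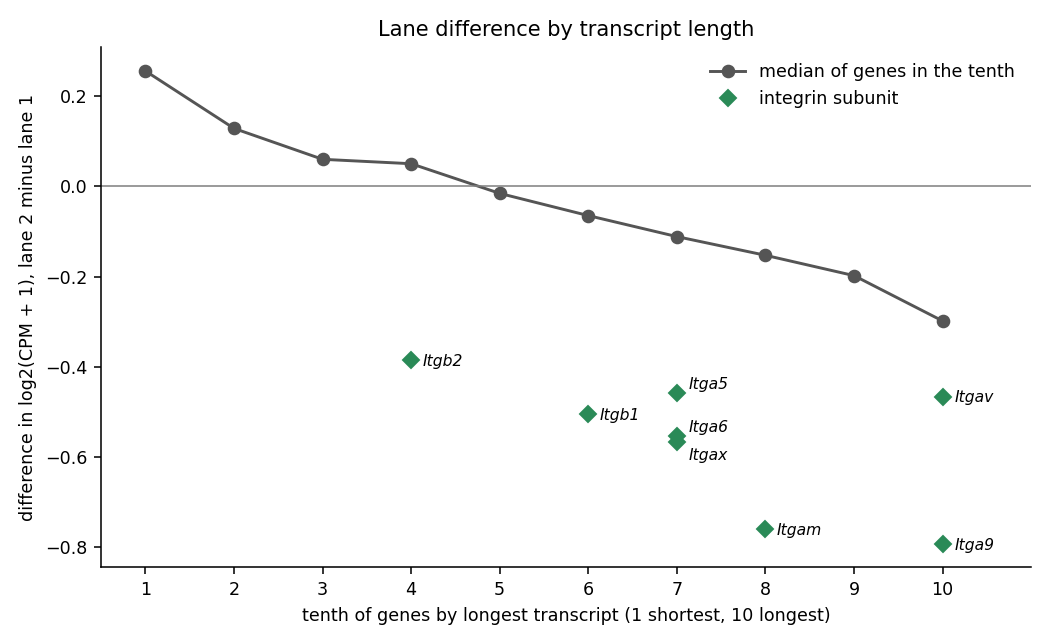
Difference in log2(CPM + 1), lane 2 minus lane 1, against the class of longest transcript length, numbered from 1 (shortest) to 10 (longest). Shown is the median of each of the 10 classes of genes of at least 10 CPM, with the members as named points at their class. The medians fall from 0.26 to -0.30 with length, and all 8 members drawn lie under the median of their own class.

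Other genes of integrin function were read from 3 lists. Of 16 other integrin subunits 4 were tested and none passed (median log2 difference -0.28). Itgb5, a beta partner of Itgav, stood at 3110 ± 657 CPM in OIR and 3618 ± 872 CPM in nonOIR (SD, n = 8), above every member in CPM, with a difference of -0.22 (edgeR adjusted p = 0.415). Itgb3, another beta partner of Itgav, had 58.5 ± 15.5 CPM in OIR and 80.4 ± 28.1 CPM in nonOIR (-0.46, edgeR adjusted p = 0.181). Itgb8, whose pair with Itgav releases TGF-beta, had 0 counts in 8 of the 16 libraries.

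Of 34 genes that activate integrins or tie them to the cytoskeleton 28 were tested, and 1 was higher and 1 lower in OIR (median log2 difference 0.02). Fgr, a Src family kinase that acts below leukocyte integrins, ranged from 27.8 to 45.0 CPM in OIR and from 16.1 to 28.7 CPM in nonOIR (0.65 ± 0.14, edgeR adjusted p = 0.00538). Lims1, part of the complex of integrin-linked kinase, had 304 ± 41.2 CPM in OIR and 396 ± 73.6 CPM in nonOIR (SD, n = 8; -0.38 ± 0.11, edgeR adjusted p = 0.0371). Rap1b, the small GTPase that switches integrins on, stood at 1072 CPM in OIR and 1097 CPM in nonOIR (edgeR adjusted p = 0.900), and the kinase Lyn at 806 and 913 CPM (edgeR adjusted p = 0.179).

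Of 37 integrin ligand genes 20 were tested, and 3 were higher and 3 lower in OIR (median log2 difference 0.01), against 6.39% higher and 4.56% lower over all genes tested. Fn1, fibronectin, the ligand of Itga5 with Itgb1, ranged from 7.93 to 46.2 CPM in OIR and from 0.654 to 10.3 CPM in nonOIR (log2 2.78 ± 0.50, edgeR adjusted p = 0.00156). Its groups overlapped between 7.93 and 10.3 CPM. Spp1, osteopontin, a ligand of Itgav, Itga4 and Itga9, ranged from 42.7 to 833 CPM in OIR and from 17.9 to 71.7 CPM in nonOIR (2.74 ± 0.61, edgeR adjusted p = 0.00747). Npnt, nephronectin, a ligand of Itga8, had 186 ± 42.2 CPM in OIR and 124 ± 29.2 CPM in nonOIR (SD, n = 8; 0.58 ± 0.16, edgeR adjusted p = 0.0216). Itgb8, Spp1 and Npnt were named after their values were seen.

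The 3 lower ligands were the junctional adhesion molecules. F11r, which codes for JAM-A, a ligand of Itgal with Itgb2, had 1719 ± 156 CPM in OIR and 2446 ± 439 CPM in nonOIR (SD, n = 8; -0.51 ± 0.099, edgeR adjusted p = 0.00292). Jam2 had 152 ± 19.5 CPM in OIR and 217 ± 22.5 CPM in nonOIR (-0.51 ± 0.090, edgeR adjusted p = 0.00144). Jam3, a ligand of Itgam with Itgb2, had 0.0873 and 1.01 CPM (-3.46 ± 0.76, edgeR adjusted p = 0.00691). Icam1, a ligand of Itgal and Itgam, stood at 197 ± 49.7 CPM in OIR and 226 ± 43.2 CPM in nonOIR (edgeR adjusted p = 0.477). Nrros, which holds latent TGF-beta for release by Itgav integrins, had 366 ± 48.3 and 357 ± 38.2 CPM (edgeR adjusted p = 0.860).

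Markers of the cells and of their neighbours were read beside these results. All 8 microglial markers had counts, and their summed level was 30242 to 46424 CPM in OIR and 48671 to 61970 CPM in nonOIR, with 4 of 8 genes lower in OIR. Of the sort genes, Cx3cr1 (edgeR adjusted p = 0.210) and Ptprc, which codes for CD45 (edgeR adjusted p = 0.396), did not pass. Of the monocyte markers 6 of 8 had counts and Ly6c2 and Fcnb were at 0, with sums of 3.58 to 16.0 CPM in OIR and 4.43 to 7.98 CPM in nonOIR. Of the neutrophil markers 5 of 8 had counts and Ly6g, Retnlg and Ngp were at 0 (0.128 to 6.63 and 0.155 to 1.64 CPM). Lymphocyte and NK markers, whose cells carry much Itgal and Itga4, summed to at most 0.803 CPM, with Cd3e and Nkg7 at 0. Erythrocyte markers, all 6 with counts, summed to 1.87 to 292 CPM in OIR (median 98.2) and 0 to 28.9 CPM in nonOIR (median 1.11), and both tested genes, the globins Hbb-bs (log2 4.57, edgeR adjusted p = 0.00701) and Hbb-bt (3.20, edgeR adjusted p = 0.0426), were higher in OIR; reads of such near copies can be split in counting. Of the pericyte markers, all 5 with counts and sums of at most 5.91 CPM, Acta2 was higher in OIR (0.744 against 0.173 CPM, log2 2.10, edgeR adjusted p = 0.0260). Of the Müller glia and astrocyte markers, all 6 with counts, Glul was lower (227 against 285 CPM, log2 -0.33, edgeR adjusted p = 0.0164), and the sums were 239 to 361 CPM in OIR and 332 to 394 CPM in nonOIR. Border macrophage markers, all 6 with counts, summed to 31.8 to 289 CPM in OIR (median 153) and 24.9 to 212 CPM in nonOIR (median 80.1). All 6 had higher means in OIR, with a median log2 difference of 1.13 against -0.03 over all genes tested, and none was called. The part of these cells in the member differences was not tested.

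Covariation was described over the 16 libraries after the mean of each group within each lane was taken off log2(CPM + 1). Among the members the closest pair was Itga9 with Itgav (Pearson r = 0.83), followed by the 2 beta chains (r = 0.72). Itgax and Itgam, neighbours on chromosome 7, gave r = -0.17. Among 7802 genes of at least 10 CPM, those most like Itga5 were Ppp1r13b (r = 0.86), Pacs1 (r = 0.79) and Rnf139 (r = 0.79). Those most like Itgax were Psap, the saposin precursor of lysosomes (r = 0.81), Cdip1 (r = 0.78) and Dctn4 (r = 0.75). For Itga9 they were Fkbp15 (r = 0.89), Epb41l2 (r = 0.86) and Ctnna1, the alpha catenin of adherens junctions (r = 0.85). Genes most like Itgal included Dock1 (r = 0.93) and Csnk1g1 (r = 0.89). These were the highest of many values over few libraries, which share depth and preparation, and carry no test.

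On mm10 (GENCODE M21) Itgam (chr7:128062640-128118491), Itgax (chr7:128129547-128150657) and Itgal (chr7:127296260-127335138) lie on chromosome 7 on the plus strand. Itga6 (chr2:71745616-71858416), Itga4 (chr2:79255426-79333123) and Itgav (chr2:83724397-83806916) lie on chromosome 2, also on the plus strand. Itgb2 lies at chr10:77530252-77565708, Itgb1 at chr8:128685654-128733200 and Itga9 at chr9:118606690-118901003, all on the plus strand, and Itga5 at chr15:103344286-103366763 on the minus strand. All counts are of reads over exons of whole genes, so splice forms were not separated.

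Library totals lay between 13.6 M and 30.0 M counts, with means of 25.1 ± 3.24 M in OIR and 22.3 ± 4.28 M in nonOIR (SD, n = 8). Itgb2 had 13430 or more counts in every library, while Itgal had at most 467 and Itga4 at most 103. Reads without molecular identifiers are not independent molecules, so counting limits do not cover amplification.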

How the data were processed

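RNA from 16 libraries of sorted retinal microglia (750 pg of input RNA each, an unstranded SMARTer v4 and Nextera XT workflow, per the labels' protocols) was read from 1 gene table. Its counts are whole reads per gene, deposited by the authors, per the file headers. Build mm10 and the tools STAR 2.6.0b-1, FastQC 0.72, DESeq2 2.11.40.2 and featureCounts 1.6.2 are listed, with no roles, in the submitters' processing notes; which annotation they used is not given in these sources. The authors' deposited table also holds normalized signal (counts divided by 1 factor per library), its own log2 fold changes and their errors, a Wald score and p-values, used only where named.

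The main test was edgeR 4.0.16 (R 4.3.3) on genes kept by filterByExpr: TMM scaling, robust glmQLFit, two-sided glmQLFTest, and p-values adjusted by Benjamini-Hochberg over 12496 genes (threshold 0.05). RPKM is CPM over merged exon length in GENCODE M21, where 54409 of 54532 identifiers were found. Partner ratios were tested by exact permutation (Python 3.11.15 with NumPy 2.4.6). The main edgeR fit, with group alone, was tested on simulated counts drawn independently for each library, with no lane difference. The other fits were not run on such data. Genes given a difference were drawn from those above a count floor, which Itga4 did not reach. In this simulation the edgeR test called 28 of 67 genes given a 1.5-fold difference, 44 of 67 given 2-fold and 64 of 66 given 4-fold. Of its 143 calls, 7 were false. A member that was not called may thus still differ. Alternatives were other scalings and filters, DESeq2 1.42.0, limma-voom 3.58.1, the lane, the replicate number, a length offset (lowess span 0.5) and the omission of each library or of OIR 1 to 4. Libraries of 1 group always differed by more than counting noise (lowest chi-square per gene 15.7).

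The members and the gene lists were chosen with earlier results of these data known. Beside the members, the rule named up to 4 genes with the lowest p among those called in each pathway list, up to 2 uncalled genes with the highest CPM, and for each member the 3 genes with the highest correlation. Not every gene named by this rule is reported here. Promoter sequences are RefSeq's (GRCm38.p6).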

Additional observations from a re-analysis of the deposited data

How the results depend on the processing

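The count of members called between OIR and nonOIR, 1 in the reported fit, was 2 with library size scaling, in lane 2 alone and with the length offset, 3 with the lane as a covariate, with DESeq2, with limma-voom and with the length offset and lane together, and 0 in lane 1 alone and without OIR 1 to 4. With single libraries left out it ranged from 0 (without nonOIR 7) to 2 (without nonOIR 4). With the replicate number as a block it was 3 (Itga5, Itgax and Itga9). Of all genes 10.9% were called in the reported fit, 17.3% with the lane as a covariate and 14.9% with DESeq2. In lane 2 alone 15.4% were called and in lane 1 alone 3.33%. No such share is given for limma-voom, the length offset alone, the replicate block or without OIR 1 to 4. The counts of members there have no background. Whether the replicate numbers pair the libraries is not given in the labels. Same-numbered libraries correlated at 0.0118 to 0.295, with values under 0.1 for 4 of 8. Only for numbers 6 and 7 was the closest nonOIR library the one of the same number. Same-numbered libraries also share a lane, so these values cannot settle the pairing. Under the block the ratios of Itgax to Itgam and of Itgav to Itgb1 no longer passed (exact adjusted p = 0.0781 for the first).

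Over all genes 1368 were called, 2159 with the lane as a covariate, 2229 with the length offset and lane, 417 in lane 1 alone, and 935 to 1556 with single libraries left out. The call split was 798 higher and 570 lower with TMM and 1020 higher and 364 lower with library size. For lane 2 against lane 1 it was 1375 higher and 1729 lower with TMM, 1955 and 1400 with library size and 1767 and 1492 with upper quartile scaling, while 8 members were called lower in each. The median log2 difference of all genes moved from -0.03 to 0.04 between groups and from 0.03 to 0.11 between lanes when library size replaced TMM.

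The term for group by lane was passed by 62 genes, 378 with DESeq2 (1 member, Itgax), 23 with the replicate block, and 21 to 145 with single libraries left out; no member was called in those 16 edgeR fits. For lane 2 against lane 1, 3104 genes were called, 1691 in OIR alone (3 members), 1782 in nonOIR alone (7 members) and 2634 to 3283 with single libraries left out, where 8 members were called each time. Of the 10 partner ratios 0 passed in lane 1 alone and 0 in lane 2 alone, and 6 to 9 with single libraries left out.

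Some signs turned. Itgb2 was 0.0556 with library size scaling, 0.17 in lane 2 alone, 0.0049 with length offset and lane, and -0.061 to 0.0419 with single libraries left out. Itgam was -0.0629 in lane 2 alone and -0.25 without OIR 1 to 4, Itga6 was 0.0488 in lane 2 alone, and Itgb1 was -0.0578 without OIR 1 to 4. The ratio of Itgam to Itgb2 was -0.23 in lane 2 alone and -0.19 without OIR 1 to 4. OIR 1 to 4 are all of lane 1, so without them the lanes are unevenly split between the groups. A group difference there may hold part of the lane difference. With all libraries and the lane as a covariate, Itgam was 0.04 and Itgb1 0.10. The cause was not tested. Over the longest transcript in place of merged exons Itga6 stood at 137.9 RPKM and Itgav at 28.8 RPKM, and Itgam stood at 197.6 RPKM over its unshared bases. The thinnest values rest on 1 count (Itgal) and 0 counts (Itga4) in a library.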

Other observations

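Of the other integrin subunits, Itgae, the alpha chain found on tissue lymphocytes and dendritic cells, had 1.80 ± 1.42 CPM in OIR and 2.29 ± 1.46 CPM in nonOIR (SD, n = 8), and Itga1, a collagen receptor chain, had 1.05 ± 0.230 CPM and 1.18 ± 0.222 CPM (edgeR adjusted p = 0.752 and 0.800). Itga2b, the platelet alpha chain, had 11 counts over all 16 libraries, and Itgad, another leukocyte partner of Itgb2, had 54 counts with 0 in 12 libraries. Itgb7, the beta partner of Itga4 and Itgae on lymphocytes, had 244 counts in all. These genes were named after their values were seen.

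The genes most like the abundant members over the 16 libraries, within group and lane, were Mapk7 for Itgam (Pearson r = 0.90), Cse1l for Itgb2 (r = 0.85), Fbxo28 for Itgb1 (r = 0.89), Tent5c for Itga6 (r = 0.92) and Kidins220 for Itgav (r = 0.90), and Cdt1 for Itga4 (r = 0.90). They are given as values only.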
